A study of Schizosaccharomyces pombe with 40 samples.

Results

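The genes examined here were the nuclear genes for mitochondrial ribosomal proteins of the fission yeast Schizosaccharomyces pombe. They were chosen by name alone, as every gene whose name begins with mrp, mrpl or mrps followed by a number. The rule matched 49 of the 7013 genes in the table, and the rule itself uses no measured value. Of these, 45 are annotated as protein-coding mitochondrial ribosomal proteins in the RefSeq annotation, 32 of the large (54S) and 13 of the small (37S) subunit, and 4 are noncoding RNAs whose names begin in the same way. The label therefore held for the 45, which are called the mrp genes below, and not for the 4 noncoding RNAs, which are described apart.

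The study deleted the genes of 3 proteins around RNA polymerase II: ell1, the ELL elongation factor, eaf1, its ELL-associated partner, and ebp1. Polyadenylated RNA was sequenced from 17 libraries in 7 groups, grown to mid log phase at 32 °C in YES, a rich medium, with adenine, histidine, leucine and uracil at 225 µg/ml. In the strain ED666 the groups were ebp1Δ (delta-ebp1::kanMX6, n = 3), eaf1Δ (delta-eaf1::kanMX6, n = 3) and wild type (n = 3). A second set of ED666 libraries, marked b in the sample titles and called ED666b here, held ell1Δ (delta-ell1::kanMX6, n = 2) and wild type (n = 2). In the strain Pem2 the groups were ell1Δ (labelled PEM-2 with delta-ell1::natMX6, n = 2) and wild type (n = 2). All ED666 cells carried h+ with ade6-M210, ura4-D18 and leu1-32, so that the wild type is itself an auxotrophic strain. Pem2 is h- and carries the same 3 markers together with mat1_m-cyhS, smt0 and rpl42::cyhR(sP56Q). The labels name no separate transformants or cultures behind the replicates, and the spread that the p-values rest on may therefore be technical.

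Mitochondria keep a small genome whose messages, nearly all for subunits of the respiratory chain, are read by ribosomes of their own. The RNA of these ribosomes is made inside the organelle, but nearly every protein of them is encoded in the nucleus, made in the cytosol and imported, so that supply of their parts depends on RNA polymerase II transcription. Fission yeast depends on its mitochondrial DNA for normal growth, which makes the set a core housekeeping module. In the common nomenclature a leading u marks a ribosomal protein found in all domains of life, b one shared with bacteria and m one found in mitochondria only. By the RefSeq product names 21 mrp genes encode u proteins, 9 b proteins and 12 m proteins, and 3 have no such class. Their identifiers place 18 on chromosome I, 17 on chromosome II and 10 on chromosome III.

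Levels within a gene are given as scaled CPM, the deposited value of a gene, which is its number of reads times 1 constant for each library, and levels between genes as RPKM, which also divides by the gene length. Recovered reads numbered 6486554 to 9193169 in an ED666 library, while ED666b libraries held 38150862 to 43374049 and Pem2 libraries 35337271 to 40796006. A single mrp gene had 183 to 1503 reads in an ED666 library, and its counting error was at most 7.39% of the value (1 SD of a Poisson count). With 1135 to 8344 reads in ED666b libraries and 1261 to 7739 in Pem2 libraries it was at most 2.97% and 2.82%. The deleted genes followed the labels: ebp1 was at 8.28 to 10.2 scaled CPM in ebp1Δ and 61.2 to 79.6 in wild type, eaf1 at 19.0 to 22.3 in eaf1Δ and 43.4 to 56.8 in wild type, and ell1 at 16.6 to 20.6 in ED666b ell1Δ against 73.5 to 84.6 in wild type and at 25.3 to 31.1 in Pem2 ell1Δ against 68.5 to 71.4 in wild type. Of the mating genes used to check the strains, 5 of M (h-) cells summed to 108 to 239 scaled CPM in the h- libraries of Pem2 and to 72.3 to 108 in the h+ libraries. The 3 genes of P (h+) cells summed to 19.4 to 34.7 scaled CPM in the h- libraries and to 13.2 to 43.9 in the h+ libraries, which overlapped, and none of the 8 was at 0 in any library, so that these genes separated the mating types poorly. In wild-type ED666 replicate 3 stood apart: its 141 cytosolic ribosomal protein genes summed to 171380 scaled CPM, against 209090 and 214940 in replicates 1 and 2. Some of the values that turn on that library are given with and without it.

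The mrp genes formed a narrow band of middle expression. Averaged over the 17 libraries they had a median of 69.0 RPKM, with 19.2 RPKM at the bottom and 133 RPKM at the top, a 6.94-fold spread, and 34 of the 45 lay between 50 and 110 RPKM. The 32 genes of the large subunit had a median of 69.8 RPKM and the 13 of the small subunit 68.7 RPKM. By class the medians were 77.6 RPKM for u proteins, 61.7 RPKM for b proteins and 67.4 RPKM for m proteins. For scale, the 31 other mitochondrial ribosomal protein genes that passed the filter on low values, named rsm, img and otherwise, had a median of 71.6 RPKM. That list was drawn by product name and symbol, which does not exclude assembly factors, and it holds var1, a gene of the mitochondrial genome. The 21 genes of mitochondrial translation factors and tRNA synthetases had a median of 22.8 RPKM, the 54 nuclear genes of the respiratory chain 204 RPKM and the 141 cytosolic ribosomal protein genes 1898 RPKM. The respiratory chain list was drawn by symbol and also holds genes of ATP synthase and of assembly factors, among them cox1101 and cox1102. All 4963 protein-coding genes kept had a median of 45.9 RPKM.

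At the top of the order were mrp15 (SPBC1539.01c, the m protein mL57) with 133 RPKM, mrp11 (SPAC31A2.03, uL10m, which in bacteria forms the base of the stalk that binds translation factors) with 128 RPKM, and mrpl44 (SPBC56F2.14, mL53) with 107 RPKM. mrp15 had 125 ± 7.48 RPKM in ebp1Δ, 125 ± 6.70 in eaf1Δ and 126 ± 8.86 in wild type of ED666 (SD, n = 3 each), 148 ± 2.71 in ell1Δ and 135 ± 8.91 in wild type of ED666b, and 140 ± 0.430 in ell1Δ and 143 ± 1.01 in wild type of Pem2 (SD, n = 2 each). mrp11 had 126 ± 3.18, 128 ± 10.5 and 129 ± 9.73 RPKM in ebp1Δ, eaf1Δ and wild type of ED666 (SD, n = 3 each), so that the order of these 2 neighbours was within their spread in ED666, while mrp15 was the higher in ED666b and Pem2. At the bottom were mrpl20 (SPCC1393.11, mL58) with 19.2 RPKM, mrpl24 (bL28m) with 19.5 RPKM and mrp49 (mL61) with 33.1 RPKM. mrpl20 and mrpl24 exchanged the last place between groups. The length behind the deposited RPKM of mrpl24 was 4929 bases, while its RefSeq gene spans 2433 bases. With the RefSeq length it would have 39.5 RPKM and be number 40 of 45 from the top, in place of number 44. In that order the other genes kept their deposited lengths. Lengths differed for other mrp genes too, among them mrps18 (1409 bases deposited, 873 in RefSeq) and mrpl39 (749 and 1017). All other RPKM values and medians here rest on the deposited lengths. The order of the 45 genes hardly moved between groups, with Spearman's rho of 0.971 to 0.983 between each group's mean RPKM and the mean over all libraries, of which each group is a part.

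**Figure D1:**
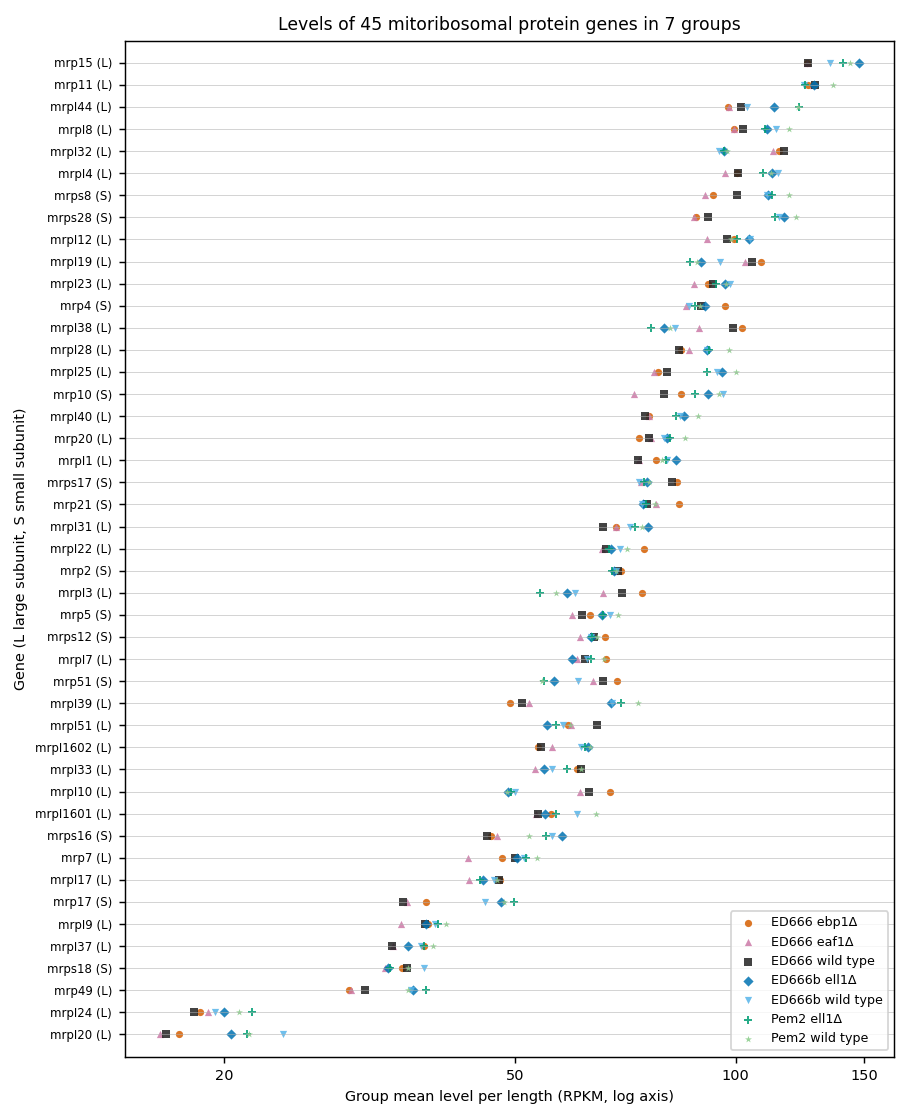
Group mean level per length (RPKM, log axis) of the 45 mrp genes, ordered by their mean over 17 libraries; each symbol is 1 of 7 groups and the letters L and S give the subunit. From mrpl20 and mrpl24 near 20 RPKM to mrp15 at 133 RPKM the groups kept nearly the same order, with Spearman's rho of 0.971 to 0.983 against the mean over all libraries.

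Within groups the mrp genes varied little. The residual SD of log2(scaled CPM + 1) had a median of 0.081 over the 45 genes, against 0.124 over the 6160 genes tested and 0.099 over the 3215 genes whose mean level lay in the same range. It was smallest for mrp4, at 0.042, and largest for mrpl1601 (uL16m), at 0.195. mrpl1601 had 98.7, 99.8 and 67.1 scaled CPM in wild-type ED666, where replicate 3 was the low library, and 112 and 88.7 scaled CPM in wild-type ED666b.

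The 4 noncoding matches were near or under the detection limit or low. mrp1 (SPNCRNA.82) is the RNA of RNase MRP, a processing enzyme of ribosomal RNA that is not part of the mitochondrial ribosome, and it had no read in 14 libraries and 1 read in each of the other 3. mrps8-antisense-1 reached 12 reads at most and did not pass the filter on low values. mrpl4-antisense-1 was at 6.38 to 11.7 scaled CPM and mrps17-antisense-1 at 1.84 to 3.91. mrpl4-antisense-1 had 11.7, 8.36 and 10.4 scaled CPM in ebp1Δ, against 6.38, 6.84 and 9.32 in wild type. These groups overlapped, and the log2 fold change of 0.40 (SE 0.15) missed the threshold with an adjusted p of 0.202 by limma. Without wild-type replicate 3 it was 0.54, with an adjusted p of 0.0517. Neither labels nor headers state if counting used the strand. It is therefore not known if reads of mrpl4, mrps8 and mrps17 were kept apart from those of their antisense partners.

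No mrp gene passed the test in any comparison. Log2(scaled CPM + 1) was fitted with limma over all 17 libraries and 6160 genes, with Benjamini-Hochberg adjustment and a threshold of 0.05, and 0 of the 45 genes passed in each of 4 deletions against their wild types, in eaf1Δ against ebp1Δ, in Pem2 wild type against ED666b wild type and in the difference between the ell1Δ effects of the strains. Of all genes, 3.67% were called in ebp1Δ, 0.844% in eaf1Δ, 0.519% in ED666b ell1Δ, 0.244% in Pem2 ell1Δ, 2.97% between eaf1Δ and ebp1Δ, 0.0812% between the wild types and 0.0325% in the difference of ell1Δ effects. At these rates a set of 45 genes would hold few calls, so the count of 0 is close to the background in every comparison. At an unadjusted p under 0.05 limma found 1 gene in ebp1Δ, 3 in eaf1Δ, 0 in either ell1Δ, 5 between eaf1Δ and ebp1Δ, 1 between the wild types and 0 in the difference, where the shares over all genes were 17%, 13.1%, 5.76%, 4.24%, 14.5%, 5.83% and 1.01%. The quasi-likelihood test of edgeR on the recovered reads also called 0, where it called 2.91%, 0.438%, 0.779%, 0.649%, 2.53%, 0.179% and 0.0325% of all genes, with 2, 2, 1, 0, 4, 1 and 0 genes at an unadjusted p under 0.05 for ebp1Δ, eaf1Δ, ED666b ell1Δ, Pem2 ell1Δ, eaf1Δ against ebp1Δ, the wild types and the difference. Over all genes the shares at that unadjusted p by edgeR were 16%, 12.5%, 7.29%, 5.11%, 13.3%, 7.82% and 1.54%. In the authors' deposited table of 4 comparisons, 0 mrp genes passed an adjusted p of 0.05, where it calls 3.24% of genes in ebp1Δ, 1.28% in eaf1Δ, 1.58% in ED666b ell1Δ and 1.33% in Pem2 ell1Δ. The smallest adjusted p of an mrp gene in the authors' deposited table was 0.628, for ebp1Δ.

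The intervals show how large a change the data would allow. In the 4 deletions, between eaf1Δ and ebp1Δ and between the wild types, the 95% interval of the fold change lay within 1.5-fold in either direction for all 45 mrp genes. In the difference of the ell1Δ effects it did so for 44, the exception being mrpl1601 with a lower bound of -0.60 on the log2 scale. The median standard error of a log2 fold change was 0.072 in comparisons within ED666 and 0.088 in those of 2 against 2 libraries. In RNA from whole cultures a smaller share of cells with a transcript and less of it per cell cannot be told apart, and all values are relative to the other RNAs of the library.

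**Figure D2:**
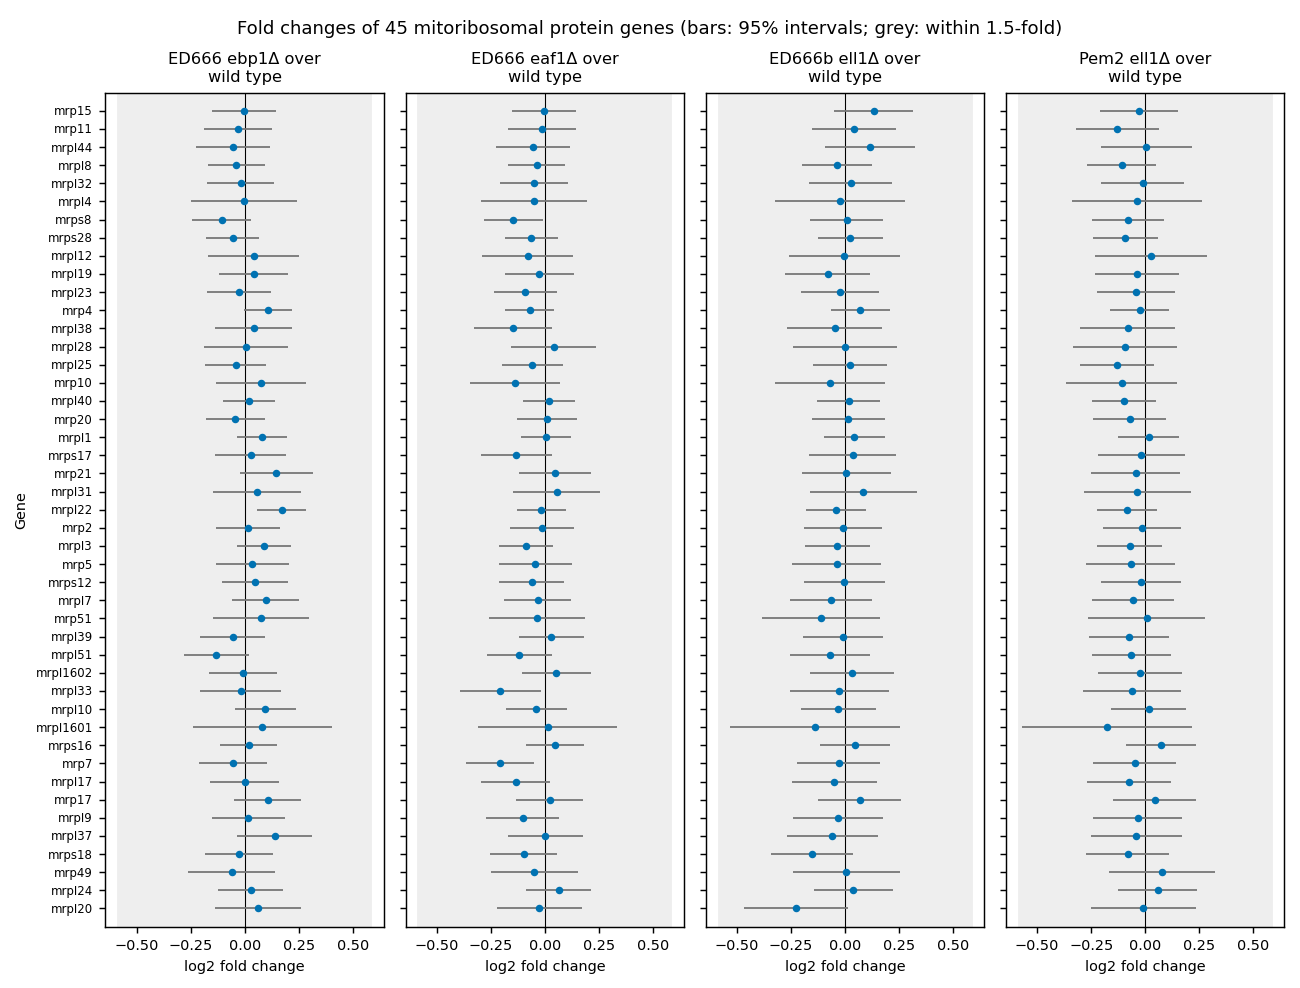
Log2 fold change of scaled CPM + 1 for the 45 mrp genes in each deletion over its wild type, in the order of the genes' mean RPKM; points are limma estimates, bars their 95% intervals and the grey band 1.5-fold in either direction. All 45 intervals lie inside the band in the 4 panels.

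Without ebp1, the fold changes of the mrp genes ran from -0.13 to 0.17 on the log2 scale, with a median of 0.02 (0.01 over all genes) and 26 of 45 above 0. Without wild-type replicate 3 the median was 0.03 and 0 genes were called. The smallest p belonged to mrpl22 (SPCC1739.02c), which encodes uL22m, a protein that lines the tunnel by which the growing chain leaves the ribosome in Escherichia coli. It had 78.4, 78.6 and 79.8 scaled CPM in ebp1Δ, against 70.2, 68.1 and 71.7 in wild type. The 3 ebp1Δ libraries were all above the 3 of wild type, yet the log2 fold change of 0.17 (SE 0.05) had an adjusted p of 0.101 by limma and of 0.0932 by edgeR. mrp4 (SPAC24C9.10c, uS2m of the small subunit) had 95.6, 94.1 and 94.3 scaled CPM in ebp1Δ, against 88.7, 86.8 and 87.8 in wild type, also without overlap and with an adjusted p of 0.314 by limma. mrpl51 (SPBC19C2.12, mL43) had 45.5, 44.9 and 51.4 scaled CPM in ebp1Δ, against 53.0, 52.2 and 50.3 in wild type, and there the groups overlapped. mrp21 (SPBC839.09c, bS21m) had 84.6, 78.8 and 77.4 scaled CPM in ebp1Δ, against 75.9, 79.0 and 63.1 in wild type. Its log2 fold change of 0.15 was 0.05 without wild-type replicate 3. In 4 mrp genes (mrpl22, mrp4, mrpl3 and mrp17) all ebp1Δ libraries lay above wild type and in 0 all lay below, where 7.73% and 9.69% of all genes did so.

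Without eaf1, the log2 fold changes ran from -0.21 to 0.06, with a median of -0.04 (-0.01 over all genes) and 13 of 45 above 0. Without wild-type replicate 3 the median was -0.04 and 0 genes were called. mrp7 (SPAP19A11.05c) encodes bL27m, whose Escherichia coli counterpart reaches into the peptidyl transferase centre. It had 59.6, 60.7 and 55.4 scaled CPM in eaf1Δ, against 64.1, 63.6 and 76.1 in wild type. All eaf1Δ libraries were below wild type, but much of the distance came from wild-type replicate 3: the log2 fold change of -0.21 (SE 0.07, adjusted p of 0.230 by limma) was -0.12 without it. mrpl33 (SPCC1919.08c, uL30m) had 28.9, 33.5 and 31.2 scaled CPM in eaf1Δ, against 33.7, 37.5 and 37.1 in wild type, a log2 fold change of -0.21 (SE 0.09) with an adjusted p of 0.324 by limma. mrps8 (SPCC736.10c, uS8m, which in Escherichia coli binds the small-subunit RNA early in assembly) had 113, 102 and 104 scaled CPM in eaf1Δ, against 111, 115 and 127 in wild type, with overlap. mrpl17 (SPCC126.05c, mL46) had 56.9, 55.2 and 60.1 scaled CPM in eaf1Δ, against 62.0, 62.6 and 64.8 in wild type. All eaf1Δ libraries lay below wild type in 4 mrp genes (mrp7, mrpl33, mrpl17 and mrps18) and above it in 0, where 7.68% and 7.22% of all genes did so.

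Without ell1, the 2 strain backgrounds both gave small differences. In ED666b the log2 fold changes ran from -0.23 to 0.13, with a median of -0.01 (0.00 over all genes) and 19 of 45 above 0. mrpl20 (mL58) had 43.5 and 47.1 scaled CPM in ell1Δ, against 48.8 and 57.8 in wild type. These libraries did not overlap, but the log2 fold change of -0.23 (SE 0.11, adjusted p of 0.929 by limma) was -0.11 without wild-type replicate 2 and -0.35 without wild-type replicate 1. mrps18 (SPAC1B3.18c, a putative S18 protein) had 48.0 and 46.4 scaled CPM in ell1Δ, against 57.8 and 47.9 in wild type. Its 4 libraries differed mainly by wild-type replicate 1, without which the log2 fold change of -0.15 was -0.02. mrp15 (mL57) had 132 and 135 scaled CPM in ell1Δ, against 127 and 116 in wild type, and mrpl44 (mL53) had 39.0 and 44.0 in ell1Δ, against 37.6 and 38.8 in wild type. Both were higher in ell1Δ without overlap, with adjusted p-values of 0.998 by limma.

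In Pem2 the log2 fold changes of ell1Δ ran from -0.18 to 0.08, with a median of -0.04 (0.00 over all genes) and 9 of 45 above 0. mrpl25 (SPAC1952.14c, mL59) had 72.3 and 73.7 scaled CPM in ell1Δ, against 78.1 and 81.8 in wild type. mrpl8 (SPBC1271.13, bL17m) had 112 and 106 scaled CPM in ell1Δ, against 118 and 117 in wild type. mrp11 (uL10m) had 128 and 140 scaled CPM in ell1Δ, against 149 and 144 in wild type. mrpl40 (SPAC4F8.02c), which encodes uL24m, a protein at the exit of the tunnel in Escherichia coli, had 113 and 103 scaled CPM in ell1Δ, against 118 and 113 in wild type. All 4 were lower in ell1Δ, by 0.10 to 0.13 on the log2 scale, with adjusted p-values of 1 by limma. These values moved with single libraries: without ell1Δ replicate 2 mrpl40 was at -0.03 and mrpl8 at -0.07, and without ell1Δ replicate 1 mrpl40 was at -0.16 and mrp11 at -0.06. The median over the 45 genes was -0.01 without ell1Δ replicate 2, -0.03 without wild-type replicate 1, -0.08 without ell1Δ replicate 1 and -0.08 without wild-type replicate 2. Leaving out 1 library also unbalances the library numbers, and the median mrp gene was 0.06 higher in number 1 in both Pem2 groups. Between libraries of the same number, the median log2 level was 6.26 in ell1Δ against 6.31 in wild type for number 1. For number 2 it was 6.18 against 6.22. The part of the library number in these swings was not tested. Both ell1Δ libraries lay below both wild-type libraries in 13 of 45 mrp genes (28.9%) and above them in 2, where 18.7% and 19.2% of all genes did so; in ED666b the counts were 5 below and 4 above, against 17.4% and 20.3%.

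The difference between the ell1Δ effects, Pem2 minus ED666b, had its smallest p for mrpl20, at 0.22 on the log2 scale (SE 0.16), since mrpl20 had 48.1 and 46.9 scaled CPM in Pem2 ell1Δ, against 46.8 and 48.9 in Pem2 wild type. mrpl25, mrp15 and mrp11 followed with -0.15 (SE 0.11), -0.16 (SE 0.12) and -0.17 (SE 0.13). Adjusted p-values were 1 for all of them by limma, and the 95% interval for mrpl20 ran from -0.12 to 0.56. Without ED666b wild-type replicate 2 mrpl20 was at 0.10 and mrp15 at -0.09, without ED666b wild-type replicate 1 mrpl20 was at 0.34, and without Pem2 ell1Δ replicate 1 mrp11 was at -0.10.

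Between the eaf1Δ and ebp1Δ libraries, which share a strain, the log2 fold changes ran from -0.21 to 0.08, with a median of -0.07 (-0.01 over all genes), and 13 of 45 were above 0; of the 13 small-subunit genes 1 was. mrpl22 had 72.4, 67.0 and 68.3 scaled CPM in eaf1Δ, against 78.4, 78.6 and 79.8 in ebp1Δ, a log2 fold change of -0.19 (SE 0.05) with an adjusted p of 0.0799 by limma and 0.0782 by edgeR. mrp4 had 87.0, 80.8 and 82.9 scaled CPM in eaf1Δ, against 95.6, 94.1 and 94.3 in ebp1Δ, a log2 fold change of -0.18 (SE 0.05) with an adjusted p of 0.0934 by limma. These were the mrp genes nearest to the threshold in the 7 comparisons. mrpl3 (SPBC3B9.14c, mL44, which has the fold of an RNase III) had 73.9, 68.5 and 70.1 scaled CPM in eaf1Δ, against 79.0, 83.2 and 78.6 in ebp1Δ. mrpl38 (SPBC887.07, a putative L38 protein) had 47.3, 44.1 and 47.5 scaled CPM in eaf1Δ, against 55.5, 52.9 and 50.4 in ebp1Δ. In 13 mrp genes (28.9%) all eaf1Δ libraries lay below all ebp1Δ libraries and in 0 above, where 11% and 13.1% of all genes did so. This comparison uses the same libraries as the 2 comparisons with wild type, and it gives no independent view of them.

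Between the wild types of Pem2 and ED666b the log2 fold changes ran from -0.16 to 0.22, with a median of 0.04 (0.00 over all genes) and 30 of 45 above 0. mrpl44 had 42.7 and 46.9 scaled CPM in Pem2, against 37.6 and 38.8 in ED666b, a log2 fold change of 0.22 (SE 0.10) with an adjusted p of 0.827 by limma. mrp11 had 149 and 144 scaled CPM in Pem2, against 134 and 133 in ED666b. mrpl39 (SPBC4F6.08c, bL33m) had 56.4 and 53.7 scaled CPM in Pem2, against 50.9 and 50.6 in ED666b, and mrps16 (SPBC354.06, an S16 protein) had 96.1 and 92.4 in Pem2, against 103 and 99.1 in ED666b. In 12 mrp genes both Pem2 libraries lay above both ED666b libraries and in 4 below, where 22.8% and 20.3% of all genes did so.

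**Figure D3:**
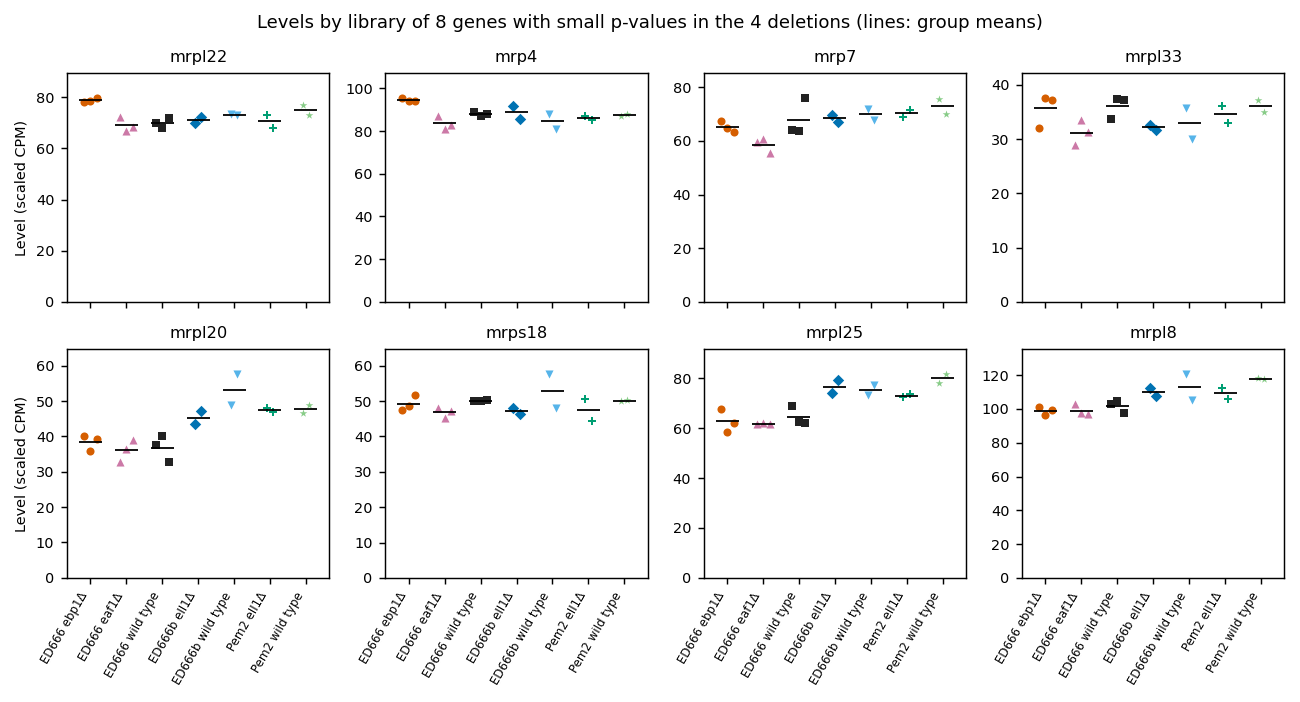
Level in each library (scaled CPM, axes from 0) of 8 mrp genes with small p-values in the deletions, 2 for each deletion; each symbol is a library and each line a group mean. mrpl22 lies between 78.4 and 79.8 in ebp1Δ, above 68.1 to 71.7 in ED666 wild type, and mrp7 between 55.4 and 60.7 in eaf1Δ, below 63.6 to 76.1 in ED666 wild type.

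Levels also differed between the ED666 libraries and the deeper libraries of ED666b and Pem2, by more than the log2 fold change of any mrp gene in a deletion for the genes that follow. The genes with the widest range of group means were mrpl39 (0.57 on the log2 scale), mrpl20 (0.55) and mrp17 (0.50; bS6m). mrpl39 was at 34.3 to 40.8 scaled CPM in the 9 ED666 libraries and at 48.4 to 56.4 in the 8 libraries of ED666b and Pem2. mrp17 was at 91.3 to 112 scaled CPM in ED666 and at 126 to 147 in the other 8. Neither range overlapped. In the wild types of the same genotype mrpl39 had 36.6, 37.6 and 40.7 scaled CPM in ED666, against 50.9 and 50.6 in ED666b. The labels do not say how the ED666 and ED666b sets differ in their making, and no comparison across them was tested.

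Summed over the 45 genes, the level was 3508 ± 22.1 scaled CPM in ebp1Δ, 3358 ± 50.7 in eaf1Δ and 3461 ± 38.0 in wild type of ED666 (SD, n = 3 each). In ED666b the sum was 3628 ± 73.0 in ell1Δ and 3643 ± 147 in wild type, and in Pem2 it was 3613 ± 92.7 in ell1Δ and 3725 ± 108 in wild type (SD, n = 2 each). The 3 eaf1Δ libraries, at 3307 to 3408 scaled CPM, lay below the lowest wild-type library of ED666 at 3430. The ebp1Δ libraries, at 3486 to 3530, overlapped with wild type. As a share of all reads eaf1Δ overlapped with wild type, at 0.322% to 0.336% against 0.328% to 0.3825%. The upper end in wild type was replicate 3, while replicates 1 and 2 were at 0.328% and 0.330%. The mrp genes took 0.322% to 0.386% of the reads of a library. The sum over the large subunit was 2.04 to 2.24 times that over the small subunit in every library, a ratio that reflects gene lengths as well as levels. It averaged 2.14 ± 0.0155 in ebp1Δ, 2.18 ± 0.0614 in eaf1Δ and 2.16 ± 0.0318 in wild type of ED666 (SD, n = 3 each).

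**Figure D4:**
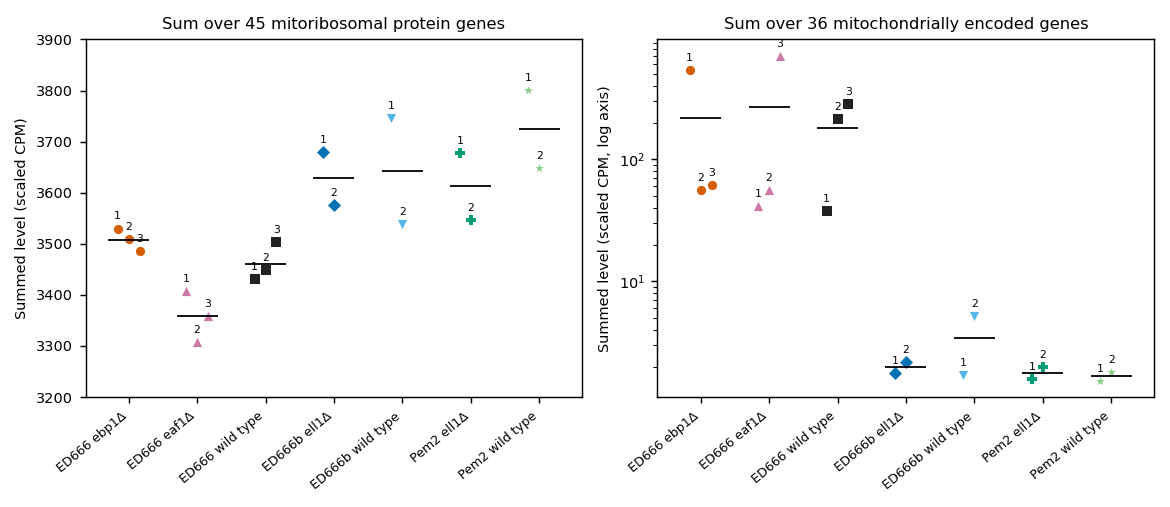
Left, summed level (scaled CPM; the axis starts above 0) of the 45 mrp genes in each library, with group means as lines and replicate numbers beside the points. Right, the sum over 36 genes of the mitochondrial genome on a log axis; it spans 37.8 to 708 in ED666 and 1.53 to 5.22 in ED666b and Pem2, while the mrp sums stay between 3307 and 3801.

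In ED666b and Pem2 the library numbered 1 had the larger mrp sum in each of the 4 groups. Within groups, 21 of the 45 mrp genes (46.7%) were higher in number 1 in all 4 groups and 4 (8.89%) lower in all 4, where 21.6% and 20.8% of all genes were. The difference was largest for mrpl1601, at 0.20 in ED666b ell1Δ, 0.33 in ED666b wild type, 0.26 in Pem2 ell1Δ and 0.26 in Pem2 wild type on the log2 scale. mrpl31 (mL60) and mrpl4 (uL29m, at the tunnel exit in Escherichia coli) followed, with means over the groups of 0.22 and 0.18. mrp51 (bS1m), mrpl44 and mrpl25 were lower in number 1 in all 4 groups. Among the nuclear genes of the respiratory chain 29 of 54 were higher in number 1 in all 4 groups. The labels do not say what the libraries of 1 number share. A fit with the replicate number as a block called 0 mrp genes, and its counts over all genes are given in the last section. Beyond that fit, the part of this difference in any result was not tested.

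**Figure D5:**
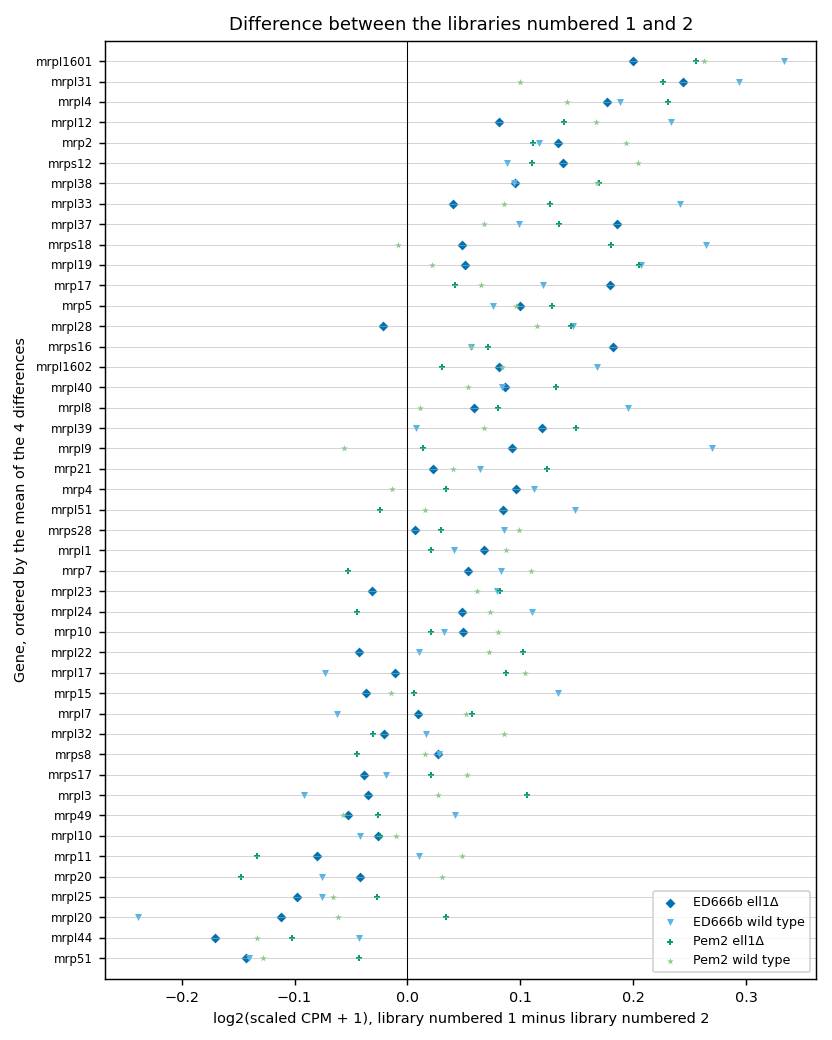
Difference in log2(scaled CPM + 1) between the libraries numbered 1 and 2 of each group, for the 45 mrp genes ordered by the mean of the 4 differences; each symbol is a group of ED666b or Pem2. In 21 genes all 4 points lie right of 0, with mrpl1601 farthest, and in 4 all lie left of it.

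The counts of called genes around the mitochondrial ribosome were also at 0 or 1, where 0.0325% to 3.67% of all genes were called in a comparison. In eaf1Δ, where the 1 call fell, the share was 0.844%, with 20 of 6160 genes called lower. Of the 31 other mitochondrial ribosomal protein genes, 0 were called in any comparison by limma. Their median log2 fold changes were 0.01 in ebp1Δ and -0.04 in eaf1Δ (0.04 and -0.01 without wild-type replicate 3), 0.00 in ED666b ell1Δ and -0.05 in Pem2 ell1Δ. Of the 26 genes for mitochondrial gene expression and ribosome assembly, 0 were called; that list holds par1 by name, although the fission yeast gene of this name encodes a phosphatase subunit. Of the 21 translation factor and tRNA synthetase genes, 1 was called, tsf1, the mitochondrial elongation factor Ts, which recharges the factor that brings aminoacyl-tRNA to the ribosome. It had 60.5, 56.3 and 56.5 scaled CPM in eaf1Δ, against 68.8, 66.9 and 69.3 in wild type, a log2 fold change of -0.24 (SE 0.05) with an adjusted p of 0.0440 by limma. That call was lost without eaf1Δ replicates 2 (adjusted p 0.168) or 3 (0.158), without wild-type replicates 1 (0.0731), 2 (0.0556) or 3 (0.0566) and by edgeR (0.0568).

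The respiratory chain, whose core subunits the mitochondrial ribosome makes, had a few called genes. cyc1 (cytochrome c) rose in ebp1Δ by 0.40 on the log2 scale (SE 0.08, adjusted p of 0.00988 by limma, and 0.104 with only the compared libraries), with 1004 to 1055 scaled CPM in ebp1Δ, against 722 to 819 in wild type. It was the 1 called gene of the 54 in ebp1Δ, where 3.67% of all genes were called. Between eaf1Δ and ebp1Δ, 4 of 54 genes were lower in eaf1Δ and 0 higher: atp1 and atp19 (ATP synthase), cyc1 and cox5 (cytochrome c oxidase), by 0.26 to 0.35 on the log2 scale. There 2.97% of all genes were called in either direction: of 6160 genes, 38 were lower in eaf1Δ and 145 higher. The adjusted p-values of the 4 genes by limma were 0.0308 to 0.0361. edgeR called 3 of them, with 0.0589 for atp1; atp1, cyc1 and cox5 lost the call without any one of the 6 libraries, and atp19 without any one but eaf1Δ replicate 1. The median over the 54 genes was 0.10 in ebp1Δ and -0.10 in eaf1Δ (0.11 and -0.11 without wild-type replicate 3), and -0.21 between them. These were further from 0 than the mrp medians of 0.02, -0.04 and -0.07. In ell1Δ the median over the 54 genes was -0.09 in ED666b and -0.11 in Pem2, where the mrp medians were -0.01 and -0.04. The difference between the lists was not tested. The 141 cytosolic ribosomal protein genes had medians of 0.04 and 0.02 in ebp1Δ and eaf1Δ, which turned to -0.05 and -0.07 without wild-type replicate 3, and of 0.03 in ED666b ell1Δ and -0.08 in Pem2 ell1Δ, with 0 called.

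cox1101 was the gene with the largest change near the set. It encodes a tandem of a mitochondrial ribosome-associated Rsm22 protein and the Cox11 assembly factor, and it has a near-identical copy, cox1102, so that reads may be split between them in ways the files do not show. cox1101 had 0.211 and 0.449 scaled CPM (9 and 19 reads) in ED666b ell1Δ, against 5.66 and 6.49 in wild type, a log2 fold change of -2.41 (SE 0.19, adjusted p of 3.04e-05 by limma). In Pem2 it had 6.17 and 5.61 scaled CPM in ell1Δ, against 6.15 and 5.91 in wild type. cox1102 had 9.53 and 8.99 scaled CPM in ED666b ell1Δ, against 5.71 and 5.78 in wild type, and the sum of both copies was 9.74 and 9.44 in ED666b ell1Δ, against 11.4 and 12.3 in wild type.

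RNA from the mitochondrial genome itself was not comparable between libraries. Of 36 such genes 10 passed the filter on low values. The sum over all 36 ran from 55.7 to 539 scaled CPM in ebp1Δ, 41.4 to 708 in eaf1Δ and 37.8 to 285 in wild type of ED666. var1, the ribosomal protein that the mitochondrial genome encodes, was at 0.697 to 9.55 scaled CPM in ED666 and at 0.185 or less in ED666b and Pem2. The libraries were made from polyadenylated RNA. The mrp sums stayed within a narrow range beside these swings, and eaf1Δ replicate 3, with 708 scaled CPM of mitochondrial RNA, had an mrp sum of 3358 scaled CPM, between 3408 and 3307 in replicates 1 and 2.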

How the data were processed

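Polyadenylated RNA was sequenced in 17 libraries; 23 further samples of the series (chromatin immunoprecipitation and input) were not analysed here. Per the submitters' processing notes the tools included TopHat2 2.1.1, Bowtie2 2.2.9, SAMtools 1.3.1, MACS2 and edgeR, with build ASM294v2, with no settings stated. Per the file headers the deposited table holds CPM and RPKM per library and the authors' own log2 fold changes and p-values for 4 comparisons. The deposited CPM columns have no common sum and were treated as signal: every value was a whole number of reads (within 0.01) times 1 constant per library, from which reads were recovered. They are called scaled CPM. One identifier occurs in 2 lines and was read once, which leaves 7013 genes.

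Genes with 1 or more scaled CPM in at least 2 libraries (6160) were fitted as log2(value + 1) on 7 group means over all 17 libraries with limma 3.58.1 (R 4.3.3). Fold changes on this scale understate those of low genes. edgeR 4.0.16 on recovered reads was an alternative, with another pseudocount (0.5), no filter, quantile normalization, the compared libraries only, a replicate block, trend and robust variance, and each library left out. The fits were tested on simulated reads, with changes larger than those of any mrp gene here and no effect shared by library number. That test does not bear on the detection of changes as small as those of the mrp genes. RefSeq names and products matched 6845 identifiers; as its build differs, no coordinates or sequences were used, and no promoter motifs were searched. The ebp1Δ columns bear another code and were assigned by elimination; the low ebp1 level there was checked. The numbers shared between groups were not taken to pair libraries: same-number correlations were -0.219 to 0.243 within ED666; in ED666b (0.653), Pem2 (0.657) and between their wild types (0.424) same-numbered libraries deviated together, but there are 2 pairs only and no label names what a number shares. No replicate pair agreed within sampling noise (chi-square per degree of freedom 4.51 to 82.2).

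The naming rule uses no measured value, but the rule and the gene lists were chosen with earlier results of these data known. In each comparison the 4 members with the smallest p were named because fewer than 4 were called, with the 3 highest, the 3 lowest and the 3 most variable between groups, the called genes of the other lists and the deleted genes. Genes outside this rule (mrpl1601, mrpl31, mrpl4, mrp51, cox1102, and those listed only because their groups did not overlap) were named after their values were seen.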

Additional observations from a re-analysis of the deposited data

Results flagged for a closer look

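The ell1Δ effect on cox1101 differed between the strains: Pem2 minus ED666b was 2.38 on the log2 scale (SE 0.27, adjusted p of 0.00274 by limma, and 0.000189 by edgeR). cox1101 was lower in both ED666b ell1Δ libraries than in both wild-type libraries, and the Pem2 libraries overlapped. Reads shared with its near-identical copy cox1102 make the value of either gene uncertain, and how the authors' counting treated such reads was not tested.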

How the results depend on the processing

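In all 87 combinations of a comparison and an alternative, 0 of the 45 mrp genes were called; over them the smallest adjusted p was 0.0599 (eaf1Δ against ebp1Δ). The 28 named values of mrp genes kept their sign in 348 of 348 recomputations. They were picked for their small p in these same data, and the recomputations reuse the same libraries. Their kept signs are therefore no independent support. With the replicate number as a block, 0 mrp genes were called in every comparison and all genes called were 340 in ebp1Δ, 91 in eaf1Δ, 45 and 28 in ED666b and Pem2 ell1Δ, 2 in the difference of ell1Δ effects, 285 between eaf1Δ and ebp1Δ and 3 between the wild types. Over the alternatives the number of all genes called ran from 65 to 368 in ebp1Δ (226 as reported), 11 to 91 in eaf1Δ (52), 5 to 48 in ED666b ell1Δ (32), 0 to 40 in Pem2 ell1Δ (15), 103 to 323 between eaf1Δ and ebp1Δ (183), 3 to 11 between the wild types (5) and 2 to 3 in the difference (2); the cause was not tested. The median mrp fold change turned sign in ED666b ell1Δ (0.03 without wild-type replicate 1, 0.01 without ell1Δ replicate 2), between the wild types (0.00 without ED666b replicate 2) and in the difference (up to 0.02). Leaving out a library in these sets also unbalances the library numbers, and the part of that in these turns was not tested. The calls of cyc1 in ebp1Δ (adjusted p 0.104) and of ell1 in Pem2 ell1Δ (0.138) were lost with only the compared libraries. Groups of 2 or 3 libraries limit what can be seen to changes near the interval widths given, and mitochondrial RNA in ED666b and Pem2 is near the detection floor.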
